A study of Mus musculus with 912 samples.

Results

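Dentate gyrus (DG) granule nuclei taken 4 h after a new environment (NE) exposure, sorted as ARC+FOS-, were compared with DG nuclei of mice that had stayed in the home cage (HC). Nuclei entered when at least 4000 genes had a log2(TPM+1) above 1, where TPM is a transcript level scaled for library size and gene length. Of the 912 nuclei in the series, 92 belonged to the comparison. These were 68 of 74 nuclei at 4 h, with 42 from mouse 17 and 26 from mouse 21, and all 24 HC nuclei, with 19 from mouse 6 and 5 from mouse 7. All mice were wild-type C57BL6 females. The 4 h mice spent 15 min in environment A and then 4 h in their home cage, with no second environment, whereas the HC mice saw no new environment. Nuclei of both groups were sorted as PROX1+CTIP2+ and negative for FOS protein. The 4 h nuclei were also sorted as positive for ARC protein, a stain that the labels do not list for the HC nuclei. The HC nuclei were in addition gated on NEUN and carried the authors' predicted cell type DG, and neither step applied to the 4 h nuclei. The HC mice were labelled 7.75 weeks (mouse 6) and 8.57 weeks (mouse 7) old. Mouse 17 was labelled 9 weeks, except 8.875 in 1 nucleus, and the nuclei of mouse 21 carried the labels 7.75, 8.57 and 8.875 weeks. Whether the nuclei of mouse 21 came from 1 animal is therefore uncertain, and n counts mouse numbers as labelled. For later comparisons, FOS+ nuclei taken at 1 h came from mouse 3, labelled 8.7 weeks. ARC+FOS- nuclei taken at 5 h came from mice 8 and 9 (8.7 weeks) and mice 22 and 23 (8.85 weeks). The estimate of spread below also used FOS- nuclei taken at 1 h from mouse 3. It further used ARC+FOS- and ARC+FOS+ nuclei of re-exposed mice, labelled 7.75 to 9 weeks. These mice entered environment A again, or a different environment C, 4 h after the first exposure. Each nucleus was 1 SmartSeq2 library. The counts of all nuclei of a mouse were summed, which gave 2 sums a side.

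Granule neurons of the DG receive the main cortical input to the hippocampus and fire sparsely, so that a new environment drives few of them. In a driven neuron, immediate early genes such as Fos, Egr1 and Arc are transcribed within minutes, and many encode transcription factors that act on later genes. Other induced genes encode effectors at the synapse, secreted peptides, kinases and channels. FOS protein is short lived, whereas ARC protein can be found for hours, and ARC+FOS- nuclei hours after exposure are therefore taken as those of neurons that were driven earlier.

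No plate held both groups. Both HC mice were processed on 1 plate, and each 4 h mouse on another plate. Plate, collection, the NEUN and ARC gates, the selection by predicted cell type and time after exposure therefore cannot be told apart. This holds for every called gene. The total count per nucleus had a median of 2469299 at 4 h (595894 to 5885216) and 974503.5 in HC (448533 to 2498965). The 4 h sums held 122269314 and 49849238 counts and the HC sums 22592040 and 4415711. Thinned to 100000 counts, the median nucleus had 4328.5 (mouse 17) and 3475.5 (mouse 21) genes detected at 4 h against 4433 (mouse 6) and 4992 (mouse 7) in HC. Prox1 had mean log2(TPM+1) values of 5.56 and 5.54 at 4 h against 5.01 and 5.45 in HC, and the 2 groups overlapped in summed CPM. The mean over 12 dentate granule markers had a median of 2.96 and 2.28 per nucleus at 4 h and of 4.69 and 4.44 in HC. Granule markers led every other marker list except that of immature granule neurons in 34 of 42 and 18 of 26 nuclei at 4 h, and in 19 of 19 and 5 of 5 in HC. A single nucleus of mouse 17 had 14054 genes and carried markers of many cell types. All 54 calls below were also made without it. Of the other lists, interneuron markers summed to 1035 and 855.8 CPM (counts scaled to library size but not to gene length) at 4 h against 387.5 and 310.9 in HC. CA1 pyramidal markers summed to 107.9 and 184.1 CPM at 4 h against 35.4 and 16.8 CPM in HC, with 6 of 6 positive fold changes (median 2.96, or 0.99 with the 3 members at 0 in HC set to their lower bound). Immature granule markers summed to 302.1 and 352.5 CPM at 4 h against 177.2 and 168.6 CPM in HC. For these 3 lists both 4 h mice were above both HC mice, and for the lists of CA3 and mossy cells, astrocytes, oligodendrocytes, microglia and endothelial cells the groups overlapped. No member of these 8 lists was called in edgeR. By limma on mean log2(TPM+1), 1 of 6 interneuron markers was higher and 1 of 5 CA3 and mossy cell markers lower at 4 h, and no other. Of 11 interneuron markers tested in edgeR, 9 had positive fold changes (median 2.57, or 2.2 with the 4 members at 0 in HC set to their lower bound). The sums of microglia markers lay between 0.8175 and 26.5 CPM in the 4 mice. The part of cell makeup in the results below was not tested beyond the counts given with them.

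In all, 54 of 24408 genes differed between 4 h and HC at an adjusted p under 0.05 (edgeR quasi-likelihood test), which is 0.221% of the genes tested. All 54 were higher at 4 h and none was lower, and for all 54 both 4 h mice lay above both HC mice. Of all genes tested, 21.9% were apart in that direction. The 54 were called on the same mice, so that their separation is no further support. Their log2 fold changes had a median of 3.48 and were at least 1.46, against a median of 0.22 over all genes. That median fell to 0 with DESeq2's size factors, and 33 of the 54 genes were then called. Of the 54 genes, 51 were protein coding. In 42 of the 53 that the log2 table lists, at least 50% of the nuclei of each 4 h mouse were above a log2(TPM+1) of 1. The number of calls rested on few mice. It was 12 without HC mouse 7, 180 without HC mouse 6, 29 without 4 h mouse 17 (28 higher and 1 lower) and 25 without 4 h mouse 21. The fit took its estimate of spread from 26 sums in 9 groups of DG nuclei, among them the groups of re-exposed mice. Without the re-exposed groups, 0 genes were called by edgeR. With the 4 sums alone, 0 genes were called by edgeR and 1325 had an unadjusted p under 0.05. The exact permutation test of 2 mice against 2 cannot go below p = 0.33.

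**Figure D1:**
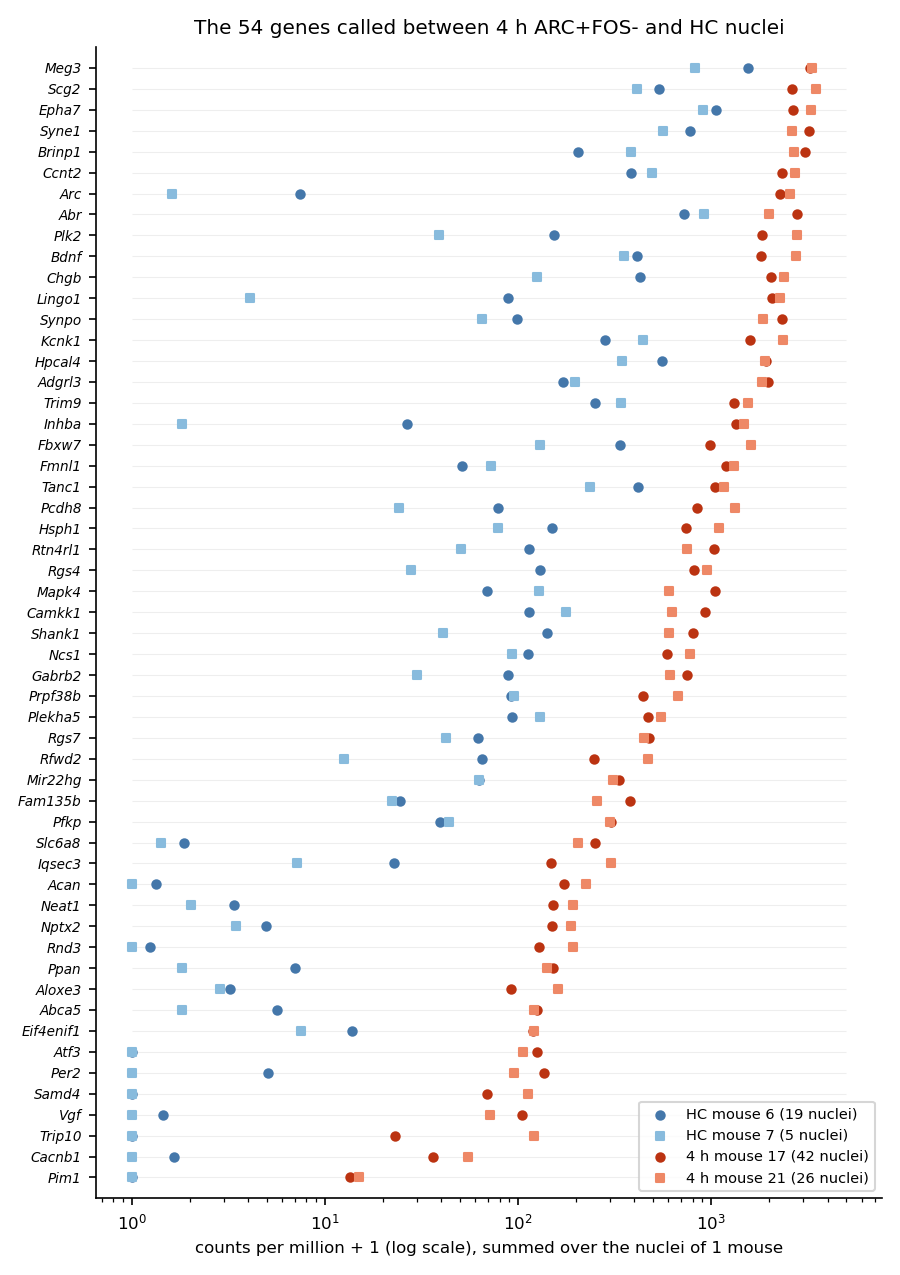
Level of the 54 called genes in each of the 4 mice, as CPM + 1 on a log scale, with each symbol the sum over the nuclei of 1 mouse (HC mice 6 and 7 in blue, 4 h mice 17 and 21 in red). In every line both red symbols lie to the right of both blue ones, in genes that were called on these same mice. The gap is widest among genes such as Arc, which were close to 0 in HC.

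**Figure D2:**
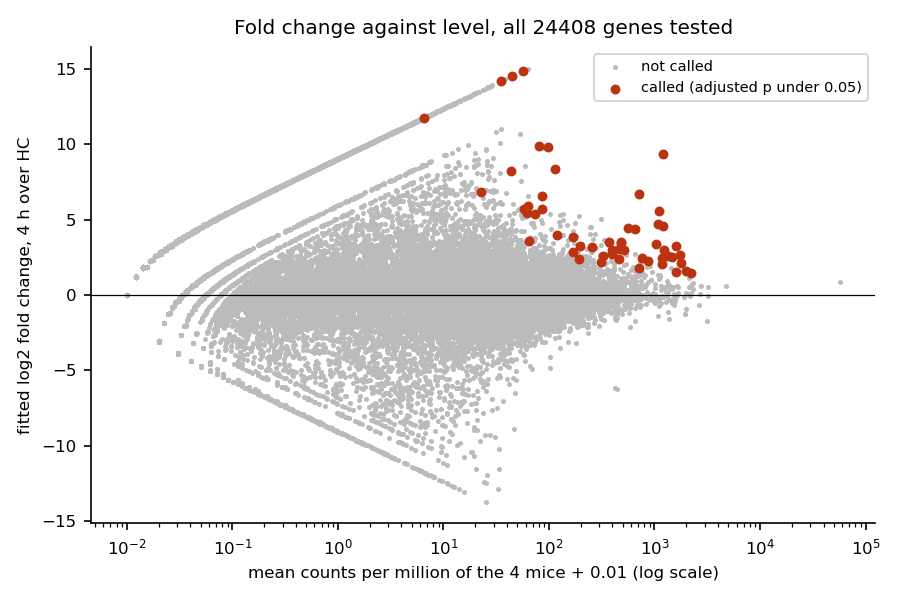
Fitted log2 fold change of 4 h over HC against the mean CPM of the 4 mice for all 24408 genes tested. The horizontal axis is the mean CPM + 0.01 on a log scale. The 54 called genes, in red, all lie above 0, and the curved bands at the edges are genes with a count of 0 in both mice of a group, whose fitted values are no measure of size.

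The effector genes of neuronal activity made up the largest group of called genes among the lists. Of 24 such genes tested, 10 rose and none fell, against 0.221% called of all genes tested. All 24 had positive fold changes with a median of 3.27, against 13458 positive among all 24408 genes. Both 4 h mice were above both HC mice in 22 of the 24, against 21.9% of all genes tested. The 10 were Arc, Bdnf, Inhba, Nptx2, Synpo, Plk2, Rgs4, Vgf, Scg2 and Mir22hg. The study names some of these genes from the same samples, so the list is not independent evidence of its direction.

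Arc encodes a cytoskeletal protein that moves AMPA receptors out of synapses, and lies on chromosome 15 from 74669083 to 74672570 (minus strand, GRCm38). Its level was 2272 and 2566 CPM in 4 h mice 17 and 21, and 6.45 and 0.613 CPM in HC mice 6 and 7. Arc was thus high in both 4 h mice and near 0 in both HC mice, with a log2 fold change of 9.36 ± 0.88 (SE, n = 2 mice a side) and an adjusted p of 1.4e-05 in edgeR. Because ARC protein was used in the sort of the 4 h nuclei only, a difference in Arc is no independent finding. Arc was above 1 in 95.2% and 96.2% of the nuclei of the 4 h mice and in 10.5% and 20.0% of those of the HC mice. Synpo encodes synaptopodin, an actin-binding protein of the spine apparatus. It stood at 2325 and 1853 CPM at 4 h and at 97.2 and 64.0 CPM in HC. The groups did not overlap, and the log2 fold change was 4.70 ± 0.43 (edgeR adjusted p = 1.4e-05). Every 4 h nucleus was above 1 for Synpo, as were 68.4% and 80.0% of the HC nuclei, so that the difference was one of level more than of detection. Nptx2, a secreted pentraxin that gathers AMPA receptors at synapses, stood at 148 and 188 CPM at 4 h and 3.96 and 2.45 CPM in HC. Nptx2 was found in 83.3% and 80.8% of 4 h nuclei against 5.3% and 20.0% of HC nuclei, and its log2 fold change was 5.69 ± 1.02 (edgeR adjusted p = 0.016). Of the others, which were chosen after their values were seen, the kinase Plk2 rose by 4.59 ± 0.80 on the log2 scale and Rgs4, which speeds G protein shut-off, by 3.50 ± 0.69.

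**Figure D3:**
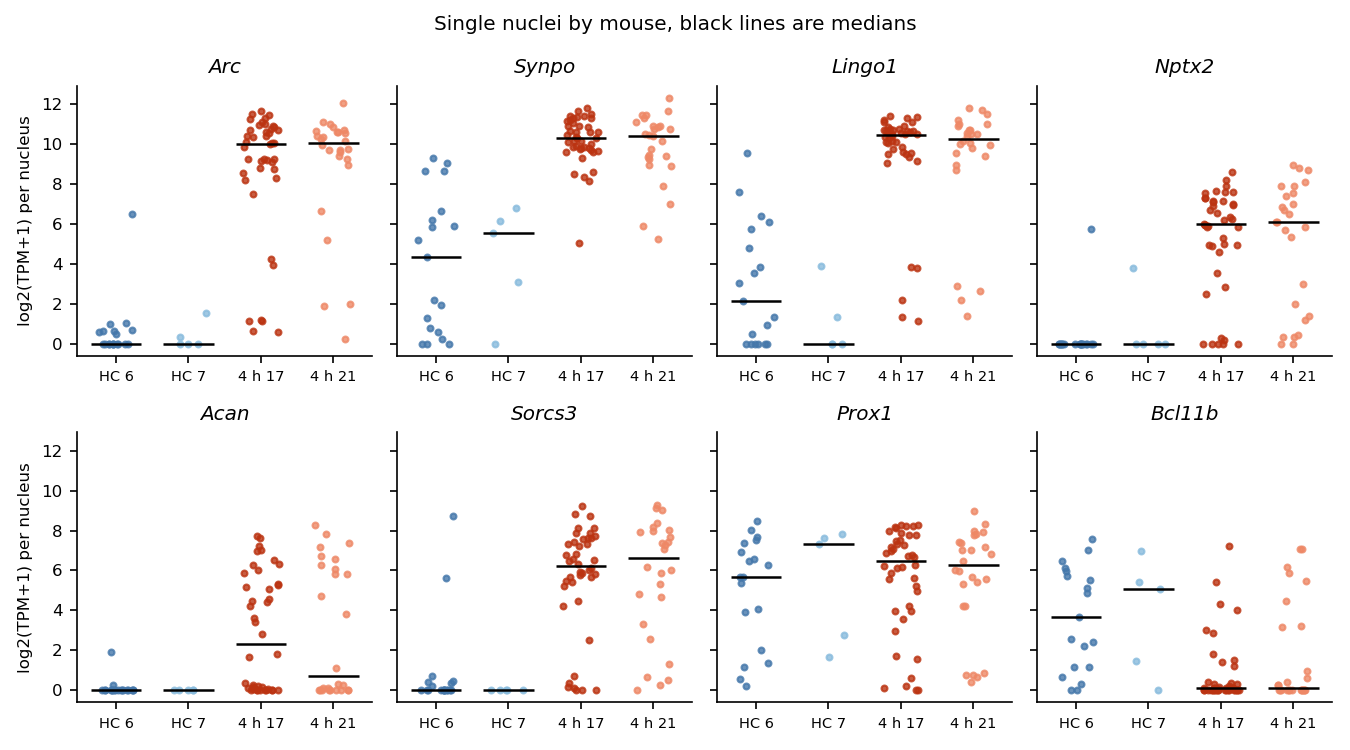
log2(TPM+1) of 8 genes in single nuclei (points) of HC mice 6 and 7 and 4 h mice 17 and 21, with the median of each mouse as a black line. Arc, Synpo, Lingo1, Nptx2 and Sorcs3 are high in most 4 h nuclei, Acan has a median of 0 in both HC mice and is split between nuclei with and without it at 4 h, Prox1 has similar levels in all mice, and Bcl11b has medians of 0.09 and 0.12 in the 4 h mice.

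Some secreted factors and vesicle proteins rose. Of 22 neuropeptide and secretory genes tested, 5 rose (Bdnf, Vgf, Scg2, Chgb and Inhba) and none fell, against 0.221% called of all genes tested. The list's median was 1.49, or 0.68 with the 4 members at 0 in HC set to their lower bound. All of these but Chgb also belong to the effector list. Scg2, a granin of dense-core vesicles and the source of secretoneurin, had 2622 and 3465 CPM at 4 h and 533 and 414 CPM in HC. The HC level was already high, and the log2 fold change of 2.69 ± 0.32 had an adjusted p of 0.00023 in edgeR. Bdnf, the neurotrophin of activity-dependent plasticity, had 1816 and 2757 CPM at 4 h and 411 and 352 CPM in HC. Its log2 fold change was 2.58 ± 0.43 (edgeR adjusted p = 0.0085), and 97.6% and 100.0% of 4 h nuclei held it against 89.5% and 80.0% of HC nuclei. Inhba, the subunit of activin A, had 1340 and 1480 CPM at 4 h and 25.5 and 0.818 CPM in HC. The 2 HC mice differed more from each other than the 4 h mice did, but the groups were far apart, with a log2 fold change of 6.72 ± 1.06 (edgeR adjusted p = 0.005). Chgb, another granin, rose by 3.01 ± 0.57 and Vgf, a granin-like precursor of peptides, by 8.26 ± 1.67. Vgf had 11 counts in the HC mice in all.

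Promoter windows of RefSeq (GRCm38.p6, 250 bases before to 50 after a start) were found for 42 of the 54 called genes and searched on both strands for known activity motifs. The cyclic AMP response element TGACGTCA was in a window of 5 called genes (Chgb, Meg3, Plk2, Ppan and Scg2), or 11.9%, against 2.03% of 27025 genes. Its core TGACG, which the full element contains, was in 17 (40.5%) against 23.0% of all genes. The AP-1 motif TGANTCA was in 3 (Abr, Bdnf and Trim9), or 7.1%, against 8.97% of all. The CArG box bound by serum response factor was in 4 (Meg3, Rnd3, Tanc1 and Trip10), or 9.5%, against 1.81%. These shares are descriptions, without a test, and a match is not a bound site. A gene counted when any of its windows matched, so a gene with more windows can match more readily. The 27025 genes had 32851 windows, whereas Bdnf alone had 7. They were all genes with a window, not the genes tested here. The bases upstream of the start are shown for Scg2, Chgb, Bdnf, Rnd3 and Trip10, as examples of called genes described in the text that held a motif, 5′ to 3′ on the strand of the gene, with the motif in capitals. The windows are chr1:79440027-79440276 (minus strand) for Scg2, chr2:132781392-132781641 (plus) for Chgb, chr2:109676782-109677031 (plus, 1 of 7 windows) for Bdnf, chr2:51149112-51149361 (minus) for Rnd3 and chr17:57249201-57249450 (plus) for Trip10.
Scg2: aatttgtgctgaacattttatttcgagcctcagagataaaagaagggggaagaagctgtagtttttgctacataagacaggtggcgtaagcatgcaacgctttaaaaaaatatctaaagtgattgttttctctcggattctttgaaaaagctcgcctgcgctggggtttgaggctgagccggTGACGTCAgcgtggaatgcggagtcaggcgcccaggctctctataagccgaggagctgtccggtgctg
Chgb: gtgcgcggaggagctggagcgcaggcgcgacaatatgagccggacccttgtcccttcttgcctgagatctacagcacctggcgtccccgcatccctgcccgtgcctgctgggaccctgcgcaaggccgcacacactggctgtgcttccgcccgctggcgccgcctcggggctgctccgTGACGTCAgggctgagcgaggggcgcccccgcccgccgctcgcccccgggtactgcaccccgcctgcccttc
Bdnf: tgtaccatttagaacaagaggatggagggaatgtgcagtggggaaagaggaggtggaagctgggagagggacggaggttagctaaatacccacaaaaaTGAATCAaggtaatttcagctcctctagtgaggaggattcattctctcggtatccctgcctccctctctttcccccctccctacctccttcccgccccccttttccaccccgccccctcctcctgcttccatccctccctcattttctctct
Rnd3: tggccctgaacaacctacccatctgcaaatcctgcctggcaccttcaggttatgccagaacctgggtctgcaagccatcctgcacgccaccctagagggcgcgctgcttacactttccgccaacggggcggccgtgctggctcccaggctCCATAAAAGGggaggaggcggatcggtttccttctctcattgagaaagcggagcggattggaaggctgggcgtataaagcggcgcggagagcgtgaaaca
Trip10: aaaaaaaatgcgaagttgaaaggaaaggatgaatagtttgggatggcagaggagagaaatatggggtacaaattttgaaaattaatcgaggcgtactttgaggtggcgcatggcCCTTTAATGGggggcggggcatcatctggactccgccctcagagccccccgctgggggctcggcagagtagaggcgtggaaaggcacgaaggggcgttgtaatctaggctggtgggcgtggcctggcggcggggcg
The element begins 68 bases before the start in Scg2 and 72 bases before it in Chgb, and the AP-1 motif 152 bases before the start of that Bdnf window. The CArG box begins 100 bases before the start in Rnd3 and 136 bases before it in Trip10.

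The named genes with the largest fold changes had almost no counts in HC. Atf3 (a stress-induced transcription factor), Samd4 (an RNA-binding protein of the Smaug family), Trip10 (a Cdc42 effector) and Pim1 (a serine/threonine kinase) had 0 counts in both HC mice. Against a floor of 3 counts over both HC mice, the summed counts of Atf3 were at least 1120-fold higher at 4 h. This bound was 875-fold for Samd4, 691-fold for Trip10 and 129-fold for Pim1. The bounds take reads as independent draws, although counts include PCR copies and the 0 rests on 24 HC nuclei. They are thus no bounds on a difference between mice. Over the alternative analyses, log2 estimates spanned 2.39 to 15.4 for Atf3 and 2.04 to 15.04 for Samd4. They spanned 2.04 to 14.81 for Trip10 and 1.49 to 12.28 for Pim1. The 4 genes were called in 8, 12, 10 and 11 of 18 of these. Among the 18, a threshold of 100000 reads besides the 4000 genes removed no nucleus, so it repeats the main analysis. These genes were not in every 4 h nucleus. Atf3 was above 1 in 40.5% and 34.6% of them, Samd4 in 38.1% and 38.5%, and Pim1 in 31.0% and 42.3%. Trip10 differed between the 4 h mice, with 21.9 CPM in mouse 17 and 119 CPM in mouse 21. Rnd3, an atypical small GTPase that loosens actin stress fibres, had 127 and 191 CPM at 4 h and 0.245 and 0 CPM in HC, with 6 HC counts in all. It rose by 9.89 ± 1.35 on the log2 scale (edgeR adjusted p = 0.0015). Slc6a8, the creatine transporter, had 250 and 203 CPM at 4 h and 0.858 and 0.409 CPM in HC. Its log2 fold change of 8.39 ± 0.80 had an adjusted p of 1.4e-05 in edgeR, and it was found in 66.7% and 42.3% of the 4 h nuclei. Cacnb1, a cytoplasmic subunit of voltage-gated calcium channels, had 35.3 and 54.0 CPM at 4 h against 0.654 and 0 CPM in HC.

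The list of late-signature genes holds genes that the study discusses from these samples, at later times or as predictors of reactivation. Of these, 2 of 18 tested rose (Acan and Kcnk1) and none fell, against 0.221% called of all genes tested. Positive fold changes were found in 17, with a list median of 1.55, against 13458 positive among all 24408 genes. The study chose this list on the same samples, so that it is not independent evidence of a direction. Acan encodes aggrecan, the core proteoglycan of perineuronal nets, and lies on chromosome 7 from 79053483 to 79115099. It had 171 and 224 CPM at 4 h and 0.327 and 0 CPM in HC, from 8 HC counts. Acan rose by 9.82 ± 1.44 (edgeR adjusted p = 0.0033), although only 54.8% and 50.0% of 4 h nuclei were above 1. Kcnk1, a potassium leak channel, had 1587 and 2351 CPM at 4 h and 282 and 444 CPM in HC, and rose by 2.44 ± 0.38 (edgeR adjusted p = 0.0049).

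Other genes of this list were apart between the groups without passing the adjusted threshold in edgeR. On the mean log2(TPM+1) scale, limma called 5 of the 18 higher, against 1.09% of all genes it tested. Among the 5 were Sorcs3 (limma adjusted p = 0.0025), Gabra4 (0.0093), Blnk (0.02) and Ncan (0.049), but not Kcnk1 (0.13). DESeq2 called Blnk (adjusted p = 6.8e-05), Pxdn (0.0023), Sorcs3 (0.027) and Ncan (0.033). Sorcs3, a sorting receptor of the VPS10P family, had 418 and 611 CPM at 4 h and 61.4 and 0 CPM in HC. Sorcs3 was above 1 in 83.3% and 84.6% of 4 h nuclei and in 10.5% and 0.0% of HC nuclei. Its log2 fold change was 4.06 ± 1.40 (edgeR adjusted p = 0.63), and 1 HC nucleus bore on it: with nuclei of HC and 1 h FOS- mice above 2.5 for Arc left out, the fold change was 6.95 and the adjusted p 0.032. Without HC mouse 6 the adjusted p was 0.0014, with the remaining HC mouse at 0 counts. Blnk, a B cell adaptor, had 343 and 346 CPM at 4 h and 22.3 and 2.25 CPM in HC (log2 fold change 4.79 ± 1.10, adjusted p = 0.10). Pxdn, a matrix peroxidase, had 584 and 387 CPM at 4 h and 39.2 and 33.5 CPM in HC (3.74 ± 0.93, adjusted p = 0.17). Ncan, which encodes the proteoglycan neurocan, had 1590 and 2115 CPM at 4 h and 551 and 311 CPM in HC (2.10 ± 0.56, adjusted p = 0.24). In these 3 genes both 4 h mice were above both HC mice. Gabra4, a GABA-A receptor subunit, had 1084 and 1167 CPM against 432 and 346 CPM (1.53 ± 0.46, adjusted p = 0.38). Tnik, a synaptic kinase and 1 of the predictors, was the only 1 of the 18 with a negative fold change (-0.50 ± 0.49, adjusted p = 0.94).

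Immediate early transcription factors were mostly above HC but variable. Of 20 tested, Atf3 alone rose, against 0.221% of all genes tested, and 19 had positive fold changes with a median of 4.00. In 15 both 4 h mice were above both HC mice, against 21.9% of all genes. The list had 3 members at 0 in HC. By limma, with 14 of the genes tested, 1 was higher and the median difference was 1.08. The level of Fos was 67.3 and 167 CPM at 4 h and 0.490 and 0 CPM in HC, yet it was above 1 in 11.9% and 34.6% of 4 h nuclei and in 31.6% and 0.0% of HC nuclei (log2 fold change 8.56 ± 3.51, adjusted p = 0.84). The sort was against FOS protein, not its RNA. Egr1 had 63.2 and 70.7 CPM at 4 h and 84.2 and 0.409 CPM in HC, so the groups overlapped. Jun, a partner of FOS in AP-1, had 635 and 489 CPM against 105 and 156 CPM and was in 83.3% and 80.8% of 4 h nuclei (2.11 ± 0.78, adjusted p = 0.72). Nr4a2, a nuclear receptor, had 33.0 and 50.4 CPM against 21.0 and 0.204 CPM, and Fosb 14.3 and 7.98 CPM against 1.43 and 0 CPM. Among further genes the study names, Gadd45b, a DNA demethylation factor, had 134 and 138 CPM at 4 h against 9.85 and 0.818 CPM (4.64 ± 1.47, adjusted p = 0.45). Homer1, a postsynaptic scaffold, had 90.3 and 146 CPM against 10.0 and 8.18 CPM (3.70 ± 1.12, adjusted p = 0.40), and the dioxygenase Tet3 421 and 197 CPM against 60.6 and 36.4 CPM (2.67 ± 0.83, adjusted p = 0.43).

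The remaining lists gave at most 2 calls each. Of 18 lists with 368 genes tested, 21 genes rose, and 33 of the 54 called genes lay outside them. The share called over all genes tested, 0.221%, stands beside each list below. Gabrb2 alone rose among 15 GABA receptor genes, with 745 and 607 CPM at 4 h against 87.6 and 28.8 CPM in HC (3.54 ± 0.62, edgeR adjusted p = 0.013). Shank1, a scaffold of the postsynaptic density, was 1 of 31 glutamate receptor and scaffold genes, with 807 and 605 CPM against 141 and 39.7 CPM (2.97 ± 0.59, edgeR adjusted p = 0.033). In the list of 28 synaptic adhesion genes 2 rose, the latrophilin Adgrl3 (1962 and 1829 CPM against 169 and 196 CPM) and the ephrin receptor Epha7 (2651 and 3289 CPM against 1052 and 906 CPM). Epha7 was also the single call among 27 axon guidance genes. Per2 rose among 18 circadian clock genes (135 and 94.1 CPM against 4.04 and 0 CPM), with both 4 h mice far above HC, and the hour of day at which HC nuclei were taken is not given in the labels. Hsph1, a cytosolic chaperone, rose among 20 heat shock and chaperone genes (739 and 1090 CPM against 149 and 77.3 CPM), and Prpf38b, a splicing factor, among 29 splicing and RNA-binding genes (441 and 668 CPM against 91.3 and 94.0 CPM). Acan and Kcnk1 were the single edgeR calls among 20 matrix and 25 potassium channel genes. By limma some of these lists held genes that were lower at 4 h. Over all genes that limma tested, 2.51% were lower and 1.09% higher. Of the clock genes 2 were higher and 3 lower (Per3, Bhlhe40 and Tef, with differences of -3.23, -2.71 and -2.98, chosen after their values were seen), with a median difference of -0.65. Of the potassium channel genes 0 were higher and 2 lower, and of the glutamate receptor and axon guidance genes 2 were higher and 2 lower in each. Limma called 2 matrix, 2 GABA receptor, 2 chaperone and 1 splicing gene higher and 0 adhesion genes. Over all genes 1339 of 24408 had an unadjusted p under 0.05. None was called in edgeR among 30 respiratory chain genes (median 0.10, 0 with an unadjusted p under 0.05), 19 calcium and sodium channel genes (median 0.03, 1 unadjusted), 17 JmjC and DNA demethylation genes (median 1.02, 4 unadjusted), 15 glucocorticoid-responsive genes (median 0.54, 5 unadjusted) or 14 CREB family genes (median 0.90, 2 unadjusted). By limma 0, 1 (lower), 0, 1 and 1 of these passed the threshold. The called gene Cacnb1, a calcium channel subunit, was not a member of the channel list.

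**Figure D4:**
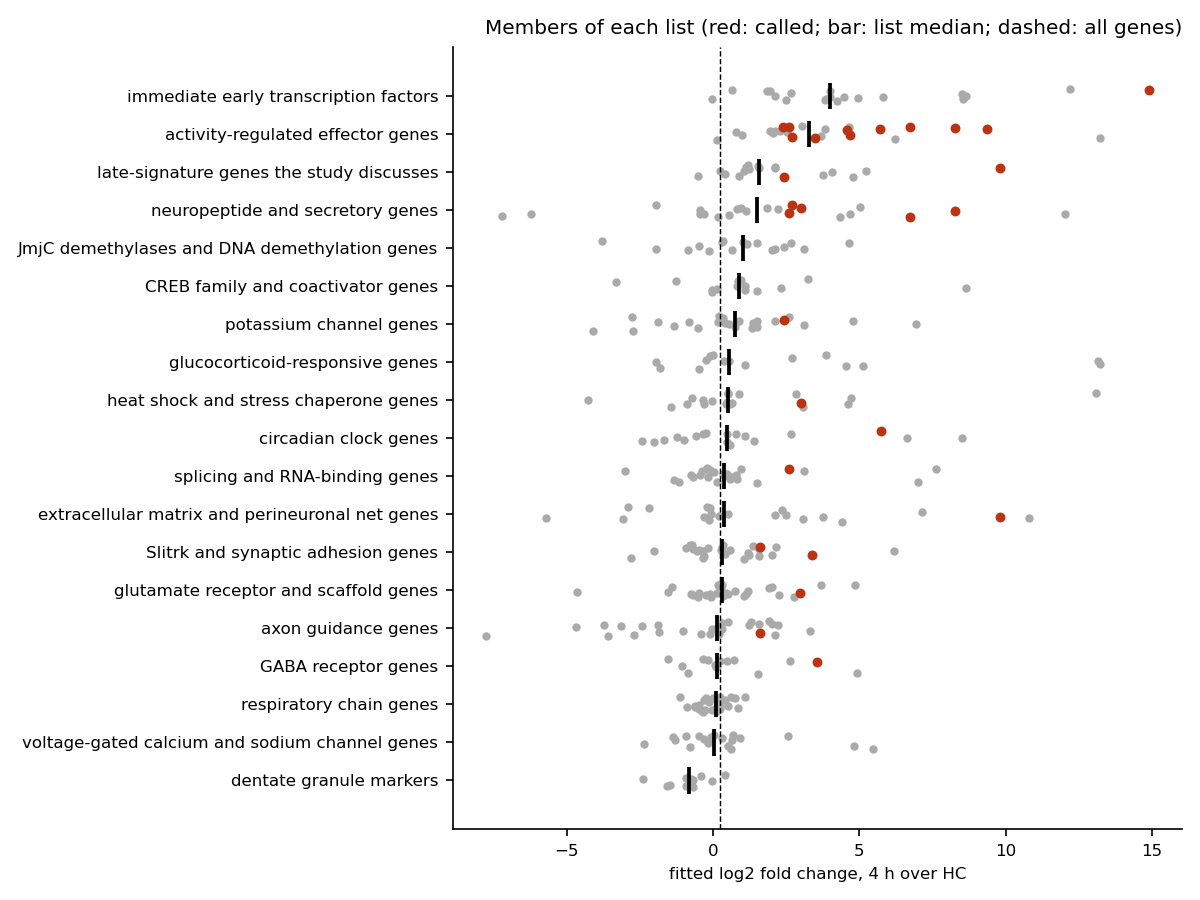
Fitted log2 fold change of 4 h over HC of each member of the 18 gene lists and the dentate granule markers, with called genes in red, list medians as black bars and the median of all genes (0.22) as a dashed line. The activity-regulated effector genes (median 3.27) hold the most called genes, the respiratory chain genes (0.10) lie close around the dashed line and the granule markers (-0.82) lie to its left.

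The 33 called genes outside the lists are described by function, and those without values above were chosen after their values were seen. Cell surface and receptor signalling was represented by Lingo1 and Rtn4rl1 of the Nogo receptor system and the protocadherin Pcdh8. Lingo1 had 2057 and 2257 CPM at 4 h against 87.6 and 3.07 CPM in HC, and was above 1 in all 4 h nuclei and in 57.9% and 40.0% of HC nuclei. Its fold change of 5.57 ± 0.96 was called in 16 of 18 alternative analyses, as were those of Arc, Inhba and Synpo, the highest number. All such counts include the alternative that repeats the main analysis. Other calls were less stable. Chgb and Per2 were called in 9 of 18, Atf3, Vgf and Cacnb1 in 8 and Adgrl3 in 8 of 17. Epha7, Mir22hg, Ncs1 and Neat1 were called in 7 of 18 and Eif4enif1 in 5, the lowest number. Ubiquitin ligases and their substrate receptors comprised Trim9, Fbxw7 and Rfwd2. Trim9, a ligase of the brain, had 1304 and 1550 CPM at 4 h against 249 and 339 CPM in HC, and its log2 fold change of 2.28 ± 0.23 (edgeR adjusted p = 3e-05) had the smallest error of the called genes. Calcium and kinase signalling comprised Camkk1, Mapk4, Pim1, Ncs1 and Hpcal4, and Rgs7 joined Rgs4 among the regulators of G proteins. Brinp1, a neural protein, had 3066 and 2674 CPM against 203 and 384 CPM (3.29 ± 0.42, edgeR adjusted p = 0.00065). Ccnt2, a cyclin of the transcription elongation factor P-TEFb, had 2318 and 2709 CPM against 381 and 493 CPM (2.53 ± 0.34, edgeR adjusted p = 0.0013). Both were far apart between groups and were present in HC. Regulators of actin and small GTPases comprised Rnd3, Fmnl1, Abr, Iqsec3 and Trip10, and the long noncoding RNAs Meg3 and Neat1 rose as well. Reads of Meg3, Neat1 and Mir22hg cannot be assigned to a strand here, since the libraries do not mark it.

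The lower side held no called gene. The lowest adjusted p among genes that were lower at 4 h was 0.15, and the genes named here were chosen after their values were seen. Bzrap1, a presynaptic active zone protein, had 115 and 23.5 CPM at 4 h against 506 and 293 CPM in HC (-2.53 ± 0.62, adjusted p = 0.15). Mycbp2, a ubiquitin ligase of axons, had 558 and 509 CPM against 880 and 960 CPM (-0.79 ± 0.22, adjusted p = 0.29). Another scale gave another picture. When the mean log2(TPM+1) over the nuclei of a mouse was tested with limma, which weighs the share of nuclei with a gene more than its summed counts, 287 of 11427 genes were lower (2.51%) and 124 higher (1.09%), and 36 of the 54 genes were among those called. DESeq2 on the sums called 1106 genes, 900 higher and 206 lower. Of the 287 genes, 284 also had negative fold changes in edgeR. Mctp1, a calcium-binding membrane protein, had means of 0.81 and 0.43 at 4 h against 4.17 and 4.87 in HC (difference -3.90 ± 0.47, limma adjusted p = 7e-05), with an edgeR adjusted p of 0.88. In the same test Slc24a2, a sodium and calcium exchanger, had 3.36 and 1.78 against 7.14 and 6.72 (limma adjusted p = 0.0011).

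Granule markers lay on this lower side. Of 12 tested, 11 had negative fold changes with a median of -0.82, and in 8 both 4 h mice were below both HC mice, against 10.3% of all genes, while edgeR called none and 0 had an unadjusted p under 0.05. With limma 4 of 12 were lower, Bcl11b among them. Bcl11b encodes CTIP2, whose protein was used in the sort of both groups. Its mean log2(TPM+1) was 0.84 and 1.73 at 4 h and 3.61 and 3.78 in HC (difference -2.41 ± 0.66, limma adjusted p = 0.045), and 23.8% and 30.8% of 4 h nuclei were above 1 against 78.9% and 80.0% of HC nuclei. Summed, it was 12.4 and 62.8 CPM at 4 h against 142 and 80.1 CPM (-1.57 ± 1.57, edgeR adjusted p = 0.95). Calb1, which encodes calbindin of mature granule neurons, had 337 and 460 CPM against 669 and 610 CPM and was above 1 in 52.4% and 50.0% of 4 h nuclei against 89.5% and 80.0% of HC nuclei. HC nuclei had been selected by their predicted cell type from the transcriptome, and 4 h nuclei by the sort alone. With nuclei led by granule markers only, 28 genes were called, all of them among the 54. In sums, fewer nuclei with a transcript and less RNA per nucleus cannot be told apart.

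The 4 h nuclei were next set against the 26 FOS+ nuclei taken 1 h after NE exposure, all from 1 mouse, which the fit assumes to vary like the mice of the other groups. Neither the 1 h nuclei nor the 5 h nuclei below shared a plate with the 4 h nuclei. Plate and time therefore cannot be told apart in these comparisons either. Here 4 of 24408 genes (0.0164%) were called, all higher at 4 h, and 809 had an unadjusted p under 0.05. The number was 0 with single-exposure groups only and 0 with 5 nuclei per mouse, and limma called 25 genes, of which 17 were lower at 4 h. The 4 genes were Acvr1c, Galnt14, Rgs7 and Tor1a. Acvr1c, an activin receptor, had 426 and 300 CPM at 4 h, 0.12 CPM at 1 h and 105 and 68.9 CPM in HC (4 h over 1 h 11.52 ± 1.47, edgeR adjusted p = 0.0037). Rgs7 had 476 and 448 CPM at 4 h, 4.08 CPM at 1 h and 61.1 and 41.5 CPM in HC. It was the only 1 of the 4 that was also called against HC. Tor1a had 66.7 and 61.3 CPM at 4 h, 0.15 CPM at 1 h and 111 and 141 CPM in HC, and Galnt14 420 and 563 CPM, 4.59 CPM and 66.3 and 46.2 CPM. For all 4 genes the 1 h mouse was below both HC mice, with 4 counts in all for Acvr1c and 5 for Tor1a. For Tor1a both 4 h mice were below both HC mice as well.

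Levels at 1 h, 4 h and 5 h differed by gene. Arc was at 2608 CPM in the 1 h mouse and Synpo at 2536 CPM (log2 fold changes of -0.11 ± 0.74 and -0.28 ± 0.44, 4 h over 1 h). Inhba was at 3180 CPM at 1 h against 1340 and 1480 CPM at 4 h. Nr4a2 (887 CPM), Kdm6b (627 CPM), Homer1 (1147 CPM) and Fosb (189 CPM) were all several times above their 4 h levels in the 1 h mouse, with no adjusted p under 0.05 in edgeR. Kdm6b, a histone demethylase, was at 19.8 and 42.6 CPM at 4 h and 22.4 and 8.18 CPM in HC, so the groups overlapped. In the other direction, Sorcs3 was at 0 CPM at 1 h, Rgs4 at 55.6 CPM and Gabrb2 at 209 CPM, all below 4 h. Kcnk1 was at 579 CPM at 1 h (4 h over 1 h 1.77 ± 0.48, adjusted p = 0.71). The 4 h against HC and 4 h against 1 h comparisons share the 4 h mice, so that these values are side by side and not independent.

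At 5 h, 59 of 96 ARC+FOS- nuclei of 4 mice passed the gene threshold (22, 21, 10 and 6 in mice 8, 9, 22 and 23). Their median count was 426841, against 2469299 at 4 h. Arc was above 2.5 in 18, 17, 6 and 2 of them by mouse, against 37 of 42 and 23 of 26 at 4 h. The part of these differences in the 5 h levels below was not tested. In edgeR 0 of 24408 genes (0.0%) differed between 5 h and 4 h, with 1342 at an unadjusted p under 0.05. DESeq2 called 698 and limma 1. Arc was at 541, 656, 748 and 285 CPM at 5 h, all below the 2272 and 2566 CPM at 4 h (5 h over 4 h -2.12 ± 0.51, edgeR adjusted p = 0.68). Synpo was likewise lower in every 5 h mouse, at 889, 818, 534 and 533 CPM (-1.59 ± 0.31, edgeR adjusted p = 0.28). Kcnk1 was at 1178, 1060, 1160 and 843 CPM at 5 h, between its HC and 4 h levels. Sorcs3 was at 425, 487, 542 and 765 CPM, which overlaps 4 h, and Trim9 at 1389, 1395, 1302 and 1203 CPM, a difference of -0.11 ± 0.19. The 54 genes were called for high levels in the same 4 h mice, so that lower values at 5 h are not independent of that choice.

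**Figure D5:**
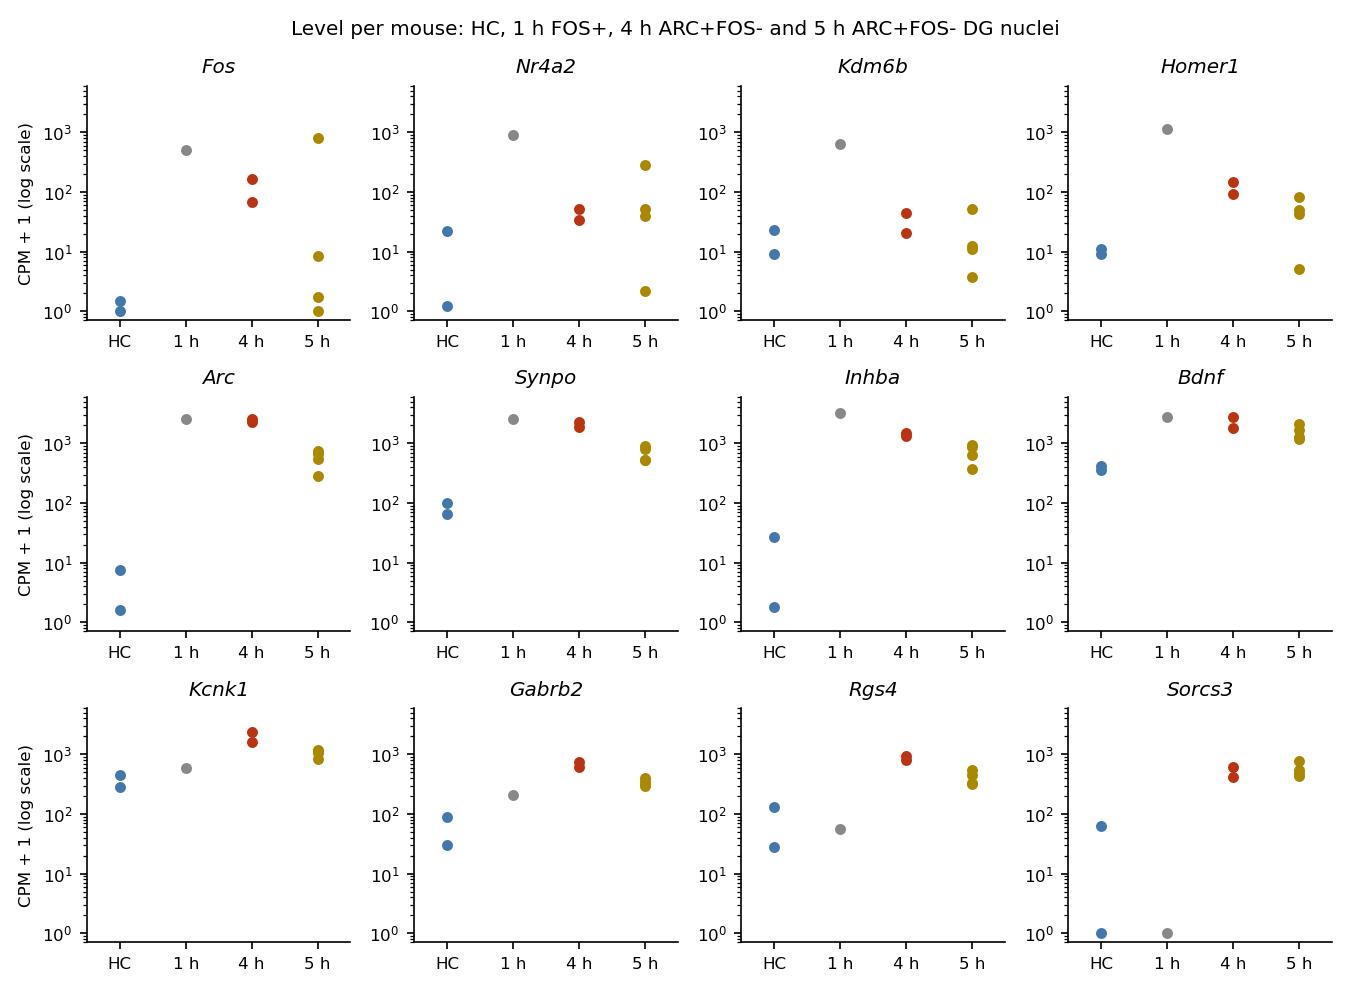
Level of 12 genes, as CPM + 1 on a log scale, in each HC mouse (2), the 1 h FOS+ mouse (1), each 4 h mouse (2) and each 5 h mouse (4). Fos, Nr4a2, Kdm6b and Homer1 are higher in the 1 h mouse than in both 4 h mice, Arc and Synpo are lower in all 4 mice at 5 h than at 1 h and 4 h, and Gabrb2, Rgs4 and Sorcs3 are higher in both 4 h mice than in the 1 h mouse.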

How the data were processed

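The counts analysed were deposited by the authors as RSEM expected counts per gene and nucleus, all of them whole numbers, and the authors' log2(TPM+1) values were used as deposited. Per the paper, single-end reads were trimmed with Solexa-QA++ and quantified on the mm10 build by RSEM, with Bowtie as aligner and gene models of Ensembl, whose release is not given in the sources used here. Nuclei were the SmartSeq2 libraries whose labels give DG, and 277 columns of other nuclei were not used. Of 632 DG nuclei, 557 had at least 4000 genes with a log2(TPM+1) above 1.

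Counts were summed per mouse and group where at least 2 nuclei remained. One fit over 26 sums of 9 DG groups (17 residual degrees of freedom, common dispersion 1.949) was made with edgeR 4.0.16 in R 4.3.3 (filterByExpr, TMM, glmQLFit, glmQLFTest, Benjamini-Hochberg over 24408 genes, threshold 0.05). Mice 3, 24, 25, 26 and 27 each gave both a FOS+ and a FOS- sum. The fit had no term for mouse and took these sums as independent, so the residual degrees of freedom may be overstated. CPM used TMM library sizes, and a standard error is the log2 fold change over the square root of F. HC counts are given beside called genes that had few. Counts include PCR copies. A fold against 0 counts used a floor of 3 counts over both HC mice. Alternatives used DESeq2 1.42.0, limma 3.58.1 on mean log2(TPM+1) per mouse with genes above 0.5, other filters, 5 nuclei per mouse, 100000 counts per nucleus and leaving out each mouse, and 2 more were chosen after seeing the data. ROTS, the authors' test on nuclei, was not run. Tables and figures were made in Python 3.11.15.

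The comparison and gene lists were chosen with earlier results of these data known. Named genes are those the study discusses for these nuclei, the 10 called genes with the largest fold changes in each direction with groups apart, and up to 4 genes of smallest p per list, and not every gene the rule covers is reported here. Positions are those of GENCODE vM21 (GRCm38), joined by symbol for all 481 genes tabled.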

Additional observations from a re-analysis of the deposited data

How the results depend on the processing

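Between 4 h and HC, 54 genes were called. The number was 33 with DESeq2's size factors, 1106 with DESeq2 (900 higher and 206 lower), 411 with limma (124 higher and 287 lower), 18 with at least 5000 genes per nucleus, 82 at 100000 counts per nucleus, 13 with 5 nuclei per mouse and 28 with nuclei led by granule markers, the last chosen after seeing the data. It was 0 with the 4 sums alone and 0 with HC and single-exposure groups only, with 1325 and 752 genes at an unadjusted p under 0.05 in edgeR. Leaving out a mouse gave 12 to 180. The counts without the low-count filter (52), without the gene threshold (74), with the HC nuclei above 2.5 for Arc left out (60) and without the nucleus over 10000 genes (54) were within 1.5 times the reported one.

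Between 4 h and 1 h FOS+, 4 genes were called, against 1380 with DESeq2, 25 with limma (8 higher and 17 lower), 9 without the gene threshold, 1 with 5000 genes, 2 at 100000 counts, 0 with 5 nuclei, 0 with single-exposure groups and 1 with nuclei led by granule markers. Leaving out either 4 h mouse gave 2 (2 to 2). Between 5 h and 4 h the count of 0 became 698 with DESeq2 and 1 with limma.

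Of 899 fold changes of 50 named genes under the 18 alternatives, 712 kept their direction and side of the threshold, 157 were no longer called, 23 became called and 7 turned sign, none of them called. The alternative with 100000 reads and 4000 genes kept the same nuclei as the main analysis. Its 50 unchanged values, counted in the 712, were thus fixed in advance. Entpd4 turned to -0.15 with DESeq2, -0.16 with its size factors, -0.30 with limma, -0.26 without HC mouse 6 (0.94 without HC mouse 7) and -0.20 without 4 h mouse 17, Hes7 to -0.10 at 100000 counts and Egr1 to -0.33 without HC mouse 7 (7.34 without HC mouse 6). The causes were not tested. No paired analysis was possible because, per the paper, each mouse was assigned to a single condition. Mouse numbers alone do not show this, since some recur between HC and exposed nuclei elsewhere in the series.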

Other observations

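One HC nucleus, from mouse 6, was above 2.5 for Arc, and its values are given here because they were seen to bear on Sorcs3. It had a log2(TPM+1) of 6.52 for Arc, 9.29 for Synpo, 9.55 for Lingo1, 8.63 for Inhba and 8.73 for Sorcs3, whereas Fos, Acan, Nptx2 and Gabrb2 were at 0. Among the other 23 HC nuclei the median was 0 for Arc, 0 for Sorcs3, 0 for Inhba, 1.32 for Lingo1 and 4.34 for Synpo, and the highest values were 1.51, 5.61, 8.06, 7.60 and 9.06. In this nucleus Prox1 was at 2.00 and Bcl11b at 0, against medians of 6.27 and 4.85 in the others. It had 708328 counts and 4882 genes above 1, which is within the range of the HC nuclei.

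Rbfox3, the gene of NEUN, had mean log2(TPM+1) values of 1.98 and 0.87 at 4 h and of 3.65 and 5.91 in HC, where NEUN was used as a gate. Mbp, a myelin gene, was above 1 in 50.0% of the nuclei of each 4 h mouse, in 36.8% of those of HC mouse 6 and in all 5 of HC mouse 7.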
